A study of Macaca mulatta with 14 samples.

Results

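The established neuroepithelial stem cell (NESC) lines of Macaca mulatta, the rhesus monkey, were compared with the fibroblasts from which they had been made, using 8 of the 14 RNA sequencing libraries of the study. CHIR-P23 was the population of induced epithelial colonies at passage 23. C8-P7 and A9-P7 were colonies that each grew from a single cell of that population, so that each is 1 clone, and their labels also give passage 23. RF-P3 was the starting culture, ear skin fibroblasts of male fetuses at embryonic day 65. The NESC lines had received retroviruses carrying SOX2, OCT4 and KLF4 of rhesus monkey, and grew on laminin in iNESC-M, a Neurobasal medium with B27 and N2 supplements for which the labels give 3 µM CHIR99021 (an inhibitor of GSK3), 5 µM SB431542 (an inhibitor of TGF-beta type I receptors), hLIF at 1000 U/ml and bFGF at 10 ng/ml. The study's methods list this medium without CHIR99021, so that the presence of this inhibitor in the established lines is uncertain. RF-P3 carried no introduced factor and grew in high-glucose DMEM with 10% FBS, so that an effect of the medium and an effect of the conversion cannot be told apart. The libraries of the days of induction (RF-iN-d5, RF-iN-d11) and of the early passage (CHIR-P6) were left out. Of the loci in the deposited table, 14046 had an FPKM of 1 or more in at least 2 of the 8 libraries and were tested, against 15024 when all 14 libraries were used. FPKM is the number of sequenced fragments per kilobase of transcript, scaled to the fragments sequenced, so that levels can be compared between genes.

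Neuroepithelial cells form the wall of the early neural tube. They divide, stand in a polarised epithelium, keep transcription factors such as SOX2 and PAX6, and hold back neuronal differentiation through NOTCH signalling. Dermal fibroblasts are mesenchymal cells that secrete and remodel a matrix of fibrillar collagens and pull on it through actin stress fibres.

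The 2 libraries of each line were closer to each other than sampling noise allows (squared differences of recovered fragment numbers were 0.077 to 0.107 times their sums, where independent libraries give about 1). Each pair was therefore averaged and counted as 1 sample, and the comparison set 3 NESC averages against 1 average of RF-P3. The spread between samples comes from the NESC lines alone, and RF-P3 was assumed to vary like them. Both clones came from the CHIR-P23 population, so the 3 NESC values are not independent conversions. SDs, SEs and p-values below therefore rest on the spread within 1 derivation. Relative depth, read from the steps between low FPKM values, was 4.74 (CHIR-P23), 1.27 (C8-P7) and 5.30 (A9-P7), against 1 (RF-P3). FPKM totals ran between 571238 and 697883 per library. Where 3 values of the NESC lines are given below, they belong to CHIR-P23, C8-P7 and A9-P7 in this order. All log2 fold changes were computed on log2(FPKM + 1), NESC lines over RF-P3, which understates the change of genes at low FPKM, and none is given where one side is listed at 0.

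Of the 14046 genes, 1480 were higher in the NESC lines (10.5%) and 2548 were lower (18.1%), in limma, where a call needed a p under 0.05 after Benjamini-Hochberg adjustment and a change of 2-fold or more in either direction. A rule of size without a test, at least 2-fold in each of the 3 lines with no overlap of libraries, gave 1328 genes higher (9.45%) and 2439 lower (17.4%), and 1219 and 2300 of these met both rules. Without C8-P7, limma called 667 higher and 1691 lower. In contrast, 8086 genes (57.6%) lay within 2-fold of RF-P3 in every line. The median log2 fold change over all genes was 0.01. Under quantile normalization this median was 0.21 and with equal FPKM totals it was 0.23, and the share of calls that were higher, 36.7% as reported, became 47.4% and 49.7%. The range among the 3 lines was 2-fold or more in 967 of all 14046 genes tested (6.88%). CHIR-P23 had 12174 genes at 1 FPKM or more, C8-P7 had 12023 and A9-P7 had 12194, against 12453 in RF-P3.

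**Figure D1:**
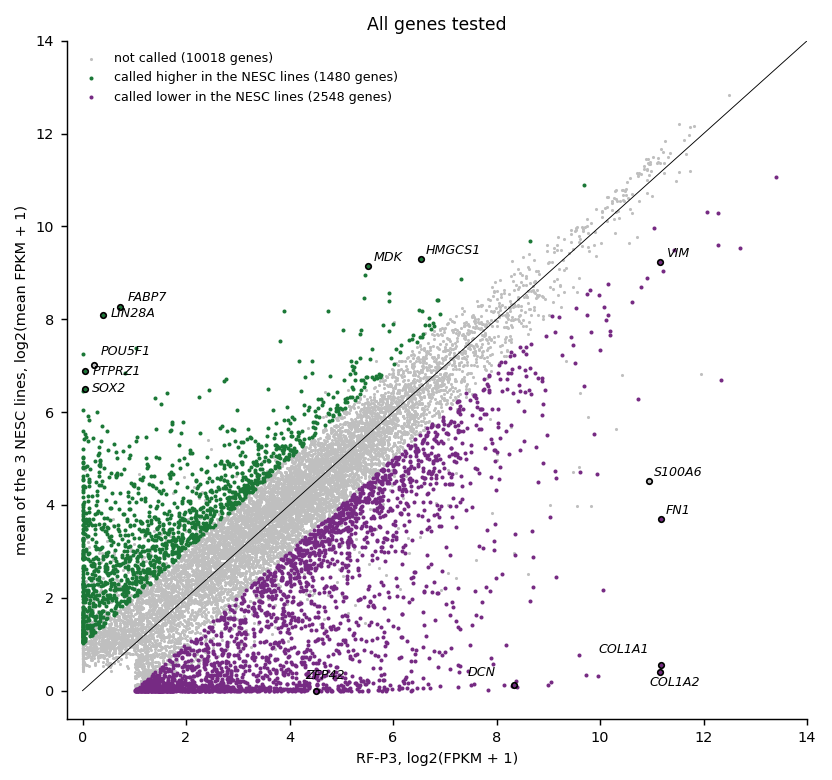
Each point is 1 of the 14046 genes tested, with the mean of the 3 NESC lines on the y axis and RF-P3 on the x axis, both as log2(FPKM + 1), and the line marks equal levels. The 1480 genes called higher lie above the line, LIN28A and FABP7 at the far left, and the 2548 called lower lie below it, with COL1A1 and COL1A2 at the lower right. POU5F1 and S100A6 lie far from the line of equality but were not called.

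LIN28A, an RNA-binding protein of early embryonic cells that blocks maturation of let-7 microRNAs, had the largest rise by the naming rule. It was at 266, 285 and 271 FPKM in the NESC lines, against 0.322 FPKM in RF-P3. The lines averaged 274 ± 10.1 FPKM (SD, n = 3), and the log2 fold change was 7.70 with an SE of 0.08 (limma, adjusted p = 0.00092). The 3 lines stood close together, and no library of RF-P3 came near them. PTPRZ1, a receptor phosphatase of neural progenitors, was at 105, 136 and 113 FPKM in the NESC lines, against 0.0385 FPKM in RF-P3. IGDCC3, a membrane protein of the immunoglobulin superfamily, was at 111, 168 and 178 FPKM in the NESC lines and was listed at 0 in RF-P3. The other genes of this group were FABP7, SOX2, POU3F2, FGFBP3, SMOC1, DPYSL5, SOX3, PRTG, GREB1L, SALL4, LIN28B and RFX4. Their log2 fold changes lay between 5.37 (RFX4) and 7.44 (FABP7), apart from POU3F2, SMOC1 and SALL4, which were listed at 0 in RF-P3. At the other end stood the chains of type I collagen. COL1A2 was at 0.0838, 0.741 and 0.118 FPKM in the NESC lines, against 2276 FPKM in RF-P3, or -10.79 on the log2 scale with an SE of 0.36 (limma, adjusted p = 0.0012). COL1A1 was at 0.504, 0.791 and 0.135 FPKM in the NESC lines, against 2307 FPKM in RF-P3. Other genes among the largest falls were IGFBP3, COL3A1, GREM1, ANKRD1, S100A4, CEMIP, DCN, DKK1, TGFBI, GPNMB, KRT7 and PTRF. Of these, S100A4 and PTRF were no longer called without C8-P7 or without A9-P7 (adjusted p of S100A4 0.066 and 0.067), and the table holds PTRF a second time under the newer name CAVIN1, so that its level is uncertain.

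Markers fixed for each cell type were used to check the labels. All 10 fibroblast markers fell, and their FPKM summed to 15.3, 4.25 and 1.49 in the NESC lines, against 6411 in RF-P3. Of the 10 neuroepithelial markers 8 rose, with sums of 1113, 1288 and 872.9 FPKM in the NESC lines, against 200.3 FPKM in RF-P3. SOX1 (4.61, 11.9 and 3.40 FPKM in the NESC lines and listed at 0 in RF-P3) had an adjusted p of 0.054 with limma and was called without C8-P7. CDH2, N-cadherin, the adhesion protein of both neural epithelium and mesenchyme, was at 121, 174 and 133 FPKM in the NESC lines, against 139.7 FPKM in RF-P3, so that RF-P3 lay between the lines. Of 8 neuron markers 3 rose, among them TUBB3, while RBFOX3, a marker of mature neurons, was under 1 FPKM in every line. SYT1 and STMN2 (given below) were highest in RF-P3 and were not called. SYT1 was at 1.44, 2.90 and 4.53 FPKM in the NESC lines, against 10.96 FPKM in RF-P3. Muscle markers marked the fibroblast culture: their sum was 13.1, 0.282 and 2.46 FPKM in the NESC lines, against 162.5 FPKM in RF-P3, and 4 of 5 fell. MYOD1, the master regulator of skeletal muscle, was listed at 0 in each NESC line and at 2.34 FPKM in RF-P3, and MYH3, embryonic myosin, at 0 and at 31.9 FPKM. The part of such muscle cells in the differences was not tested, and in bulk libraries fewer cells of a type cannot be told apart from less RNA per cell. Keratinocyte, endothelial, blood and endoderm markers summed to under 4 FPKM in each line and in RF-P3. The 6 neural crest markers summed to 6.602, 0.7478 and 0.4295 FPKM in the NESC lines, against 55.12 FPKM in RF-P3, and 2 fell. SOX10 and FOXD3, which define migrating neural crest, were under 1 FPKM in every line. TFAP2B was at 3.25, 0.200 and 0.0407 FPKM in the lines and listed at 0 in RF-P3, and was not called. TFAP2A was at 1.07, 0 and 0 FPKM in the lines, against 1.43 FPKM in RF-P3, and was not called.

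**Figure D2:**
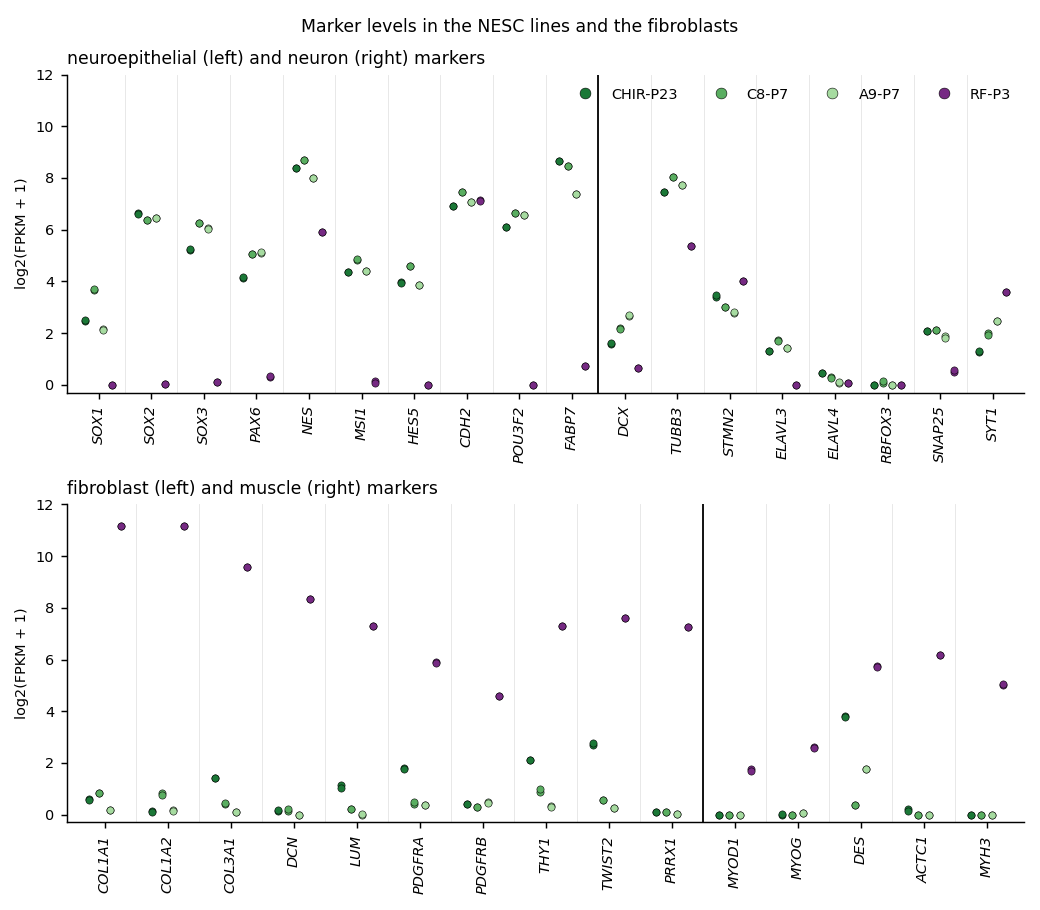
Levels of the neuroepithelial and neuron markers (upper panel) and of the fibroblast and muscle markers (lower panel) as log2(FPKM + 1), with 1 point for each library and the groups from left to right CHIR-P23, C8-P7, A9-P7 and RF-P3. Both libraries of a line lie on top of each other, the fibroblast markers are near the bottom in every line and high in RF-P3, and CDH2 is at a like level throughout.

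Collagens were among the genes that fell most. Of 24 collagen genes tested 16 fell and 2 rose (median log2 fold change -3.45). COL3A1, the second fibrillar collagen of skin, was at 1.66, 0.356 and 0.0796 FPKM in the NESC lines, against 766 FPKM in RF-P3. COL6A2 of the microfibrillar type VI collagen was at 1.13, 0.373 and 0.384 FPKM in the lines, against 237 FPKM in RF-P3, and COL5A2, which nucleates collagen fibrils, at 0.901, 0.737 and 1.28 FPKM in the lines, against 289 FPKM in RF-P3. Each of these was under 2 FPKM in every line. Basement membrane collagens were mixed. COL4A1, named after its values were seen, fell and was at 25.4, 28.4 and 26.8 FPKM in the NESC lines, against 125 FPKM in RF-P3, while its partner chain COL4A2 was not called at 63.1, 77.96 and 87.5 FPKM in the lines, against 129.8 FPKM in RF-P3. COL18A1 and COL4A5, named after their values were seen, were the 2 collagens that rose, COL18A1 to 18.6, 20.4 and 26.7 FPKM in the lines, against 4.64 FPKM in RF-P3, and COL4A5 to 6.41, 6.81 and 10.5 FPKM in the lines, against 0.755 FPKM in RF-P3, and neither was called without C8-P7. COL2A1, the collagen of cartilage and also of early neuroepithelium, differed among the lines with 53.9, 4.996 and 19.6 FPKM in the NESC lines, against 0.0305 FPKM in RF-P3, and was not called. The enzymes that modify and crosslink collagen fell as well: 24 of 27 fell (median -2.55). LOX, lysyl oxidase, was at 1.51, 0.811 and 0.594 FPKM in the NESC lines, against 178 FPKM in RF-P3, and LOXL2 at 2.91, 3.44 and 4.63 FPKM in the lines, against 152 FPKM in RF-P3. ADAMTS2, which removes the N-terminal propeptide of procollagen, was listed at 0 in each NESC line and at 27.2 FPKM in RF-P3. MIA3, which helps to load collagen into transport vesicles, was not called at 17.2, 17.97 and 19.5 FPKM in the lines, against 25.7 FPKM in RF-P3.

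Other matrix proteins, proteases and receptors were lower as well. Among proteoglycans and matricellular proteins 32 of 48 fell and 2 rose (median -3.02). The number that rose was 4 without CHIR-P23 and 1 without C8-P7. DCN, the collagen-binding proteoglycan decorin, was at 0.117, 0.135 and 0 FPKM in the NESC lines, against 324 FPKM in RF-P3. FN1, fibronectin, was at 11.2, 10.9 and 13.98 FPKM in the NESC lines, against 2301 FPKM in RF-P3, a log2 fold change of -7.47, and stayed above 10 FPKM in all lines. TGFBI, a secreted protein induced by TGF-beta, was at 0.217, 0.268 and 0 FPKM in the lines, against 331 FPKM in RF-P3, and EFEMP1, a fibulin, at 0.122, 0 and 0.0219 FPKM in the lines, against 104 FPKM in RF-P3. Of proteases and their inhibitors 21 of 24 fell (median -3.53). TIMP2 was at 6.62, 7.96 and 5.33 FPKM in the lines, against 326 FPKM in RF-P3, and MMP14, the membrane protease that activates MMP2, at 1.59, 1.77 and 4.63 FPKM in the lines, against 129 FPKM in RF-P3. Among laminins and integrins 20 of 27 fell, and 3 rose (1 without any 1 of the lines). ITGA11, through which fibroblasts bind collagen, was at 0.0368, 0 and 0.0146 FPKM in the lines, against 34.2 FPKM in RF-P3, and ITGA5, the fibronectin receptor, at 5.25, 4.59 and 5.05 FPKM in the lines, against 123 FPKM in RF-P3. LAMA1, the laminin chain of embryonic basement membranes, rose and was at 18.7, 21.7 and 23.95 FPKM in the NESC lines, against 0.198 FPKM in RF-P3.

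Contractile genes fell in part. Of 32 genes of the contractile cytoskeleton and of caveolae, the membrane pits built from caveolins, 23 fell (median -2.93), and 27 were at least 2-fold lower in every line. MYL9, the regulatory light chain of smooth muscle myosin, was at 1.15, 0.238 and 0.0997 FPKM in the NESC lines, against 243 FPKM in RF-P3. CNN1, calponin, was at 0.1005, 0.874 and 0.0798 FPKM in the lines, against 80.1 FPKM in RF-P3, and CAV2 at 0.204, 0.242 and 0 FPKM in the lines, against 71.7 FPKM in RF-P3. ACTA2, smooth muscle actin, was at 10.6, 1.78 and 0.903 FPKM in the lines, against 569.9 FPKM in RF-P3, but was not called without C8-P7 or without A9-P7. TAGLN, an actin-binding protein of fibroblasts and smooth muscle, was not called at 61.7, 84.7 and 0.824 FPKM in the NESC lines, against 1264 FPKM in RF-P3, where A9-P7 stood far below the other lines, and it was called without A9-P7. TPM1 and TPM2, the tropomyosins, were likewise lowest in A9-P7, TPM1 at 126, 174 and 29.1 FPKM in the lines, against 1369.7 FPKM in RF-P3, and TPM2 at 60.2, 162 and 29.2 FPKM in the lines, against 780.2 FPKM in RF-P3, and TPM1 was called lower without A9-P7. Among intermediate filaments, KRT7 was at 0.0224, 0 and 0 FPKM in the lines, against 228 FPKM in RF-P3, while the neurofilaments NEFM and NEFL, discussed with the neuronal genes, were higher. VIM, vimentin, which both cell types use and which was named after its values were seen, was at 666, 679 and 471 FPKM in the lines, against 2294 FPKM in RF-P3, and fell by 1.94 on the log2 scale (not called without CHIR-P23 or without C8-P7).

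Mesenchymal transcription factors fell with the matrix. Of 32 tested 22 fell and 4 rose (median -2.52), and without C8-P7 14 were called lower and 2 higher. PRRX1, a homeobox factor of limb and craniofacial mesenchyme, was at 0.0727, 0.0684 and 0.0228 FPKM in the NESC lines, against 152 FPKM in RF-P3 (log2 fold change -7.18, SE 0.12, adjusted p = 0.00092 with limma). CREB3L1, a membrane-bound factor that drives collagen secretion, was at 0.163, 0.0947 and 0.0799 FPKM in the lines, against 101 FPKM in RF-P3. TWIST2 and SNAI2, regulators of mesenchymal state, stood at 5.62, 0.465 and 0.192 FPKM and 1.65, 0 and 0.0165 FPKM in the NESC lines, against 194 and 80.4 FPKM in RF-P3, and were highest among the lines in CHIR-P23. TWIST2 was not called without C8-P7 or A9-P7, nor SNAI2 without C8-P7. AP-1 factors and other stress-responsive factors fell in 14 of 18 cases (median -1.57), and in 7 without C8-P7. FOSL2 was at 1.04, 0.8295 and 0.562 FPKM in the lines, against 29.4 FPKM in RF-P3, and JUNB at 2.54, 1.301 and 2.47 FPKM in the lines, against 32.7 FPKM in RF-P3. EPAS1, a hypoxia-inducible factor, was at 0.0736, 0 and 0.0187 FPKM in the lines, against 18.5 FPKM in RF-P3, whereas its relative HIF1A was not called at 52.5, 55.8 and 53.4 FPKM in the lines, against 98.5 FPKM in RF-P3.

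The genes of the neural tube were the counterpart. Of 32 neuroepithelial and rosette genes tested 23 rose (median log2 fold change 3.68), or 71.9% of the list. SOX2, the factor that keeps neural progenitors dividing, was at 97.8, 81.3 and 87.1 FPKM in the NESC lines, against 0.0283 FPKM in RF-P3 (log2 fold change 6.44, SE 0.14). Reads of the introduced SOX2 and of the cells' own gene cannot be told apart here. SOX3, a close relative that was not introduced, was at 36.7, 75.4 and 65.1 FPKM in the NESC lines, against 0.0768 FPKM in RF-P3. SOX21, another factor of neural progenitors, was at 22.6, 26.4 and 32.4 FPKM in the NESC lines and listed at 0 in RF-P3, as was POU3F2, a POU factor of neural development, at 67.2, 99.7 and 94.7 FPKM. Of the 11 SOX genes tested 7 rose. PAX6, which defines dorsal and lateral progenitors, was at 16.7, 32.5 and 33.6 FPKM in the NESC lines, against 0.257 FPKM in RF-P3. NES, nestin, the intermediate filament of neural stem cells, was at 332, 411 and 256 FPKM in the lines, against 59.5 FPKM in RF-P3 (not called without CHIR-P23), and MSI1, an RNA-binding protein of progenitors, at 19.5, 27.95 and 20.1 FPKM in the lines, against 0.0865 FPKM in RF-P3. The junction genes TJP1 and PARD3, which hold the epithelium together at its apical side, were not called. TJP1 had an adjusted p of 0.027 with limma but changed by less than 2-fold, at 21.3, 22.9 and 22.1 FPKM in the lines, against 31.6 FPKM in RF-P3, and PARD3 did not pass the test at 16.4, 21.6 and 17.7 FPKM in the lines, against 25.3 FPKM in RF-P3. FABP7, which binds fatty acids in radial glia, stood at 403, 351 and 166 FPKM in the NESC lines, against 0.654 FPKM in RF-P3, although its level is less certain because its average in the study's own supplement differed from the realigned values. Of 10 genes of radial glia and astrocytes 2 rose, FABP7 and PTPRZ1, and without CHIR-P23 4 were also called lower. TNC, tenascin C, was not called at 20.3, 0.0581 and 0.0749 FPKM in the NESC lines, against 320.4 FPKM in RF-P3, with CHIR-P23 far above both clones, and was lower without CHIR-P23. GLUL, glutamine synthetase, was at 82.8, 82.7 and 87.6 FPKM in the lines, against 90.5 FPKM in RF-P3, and did not pass the test.

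LIN28A stood in a list around genes that hold embryonic cells in an early developmental state and are opposed by let-7. The list also held DICER1, a gene of microRNA processing. Of its 15 genes 10 rose (median 1.78). LIN28B, the paralogue of LIN28A, was at 44.7, 50.6 and 40.3 FPKM in the NESC lines, against 0.0272 FPKM in RF-P3. TRIM71, also a target of let-7, was at 20.7, 26.7 and 19.1 FPKM in the NESC lines and listed at 0 in RF-P3. NR6A1, an orphan nuclear receptor of the early embryo, was at 14.4, 14.7 and 18.6 FPKM in the lines, against 0.0749 FPKM in RF-P3, and ARID3B at 13.8, 15.3 and 16.2 FPKM in the lines, against 0.202 FPKM in RF-P3. All 4 stood at 13 FPKM or more in every line and near 0 in RF-P3. HMGA1 and IGF2BP2, in contrast, did not pass the test, HMGA1 at 216, 188 and 198 FPKM in the lines, against 215 FPKM in RF-P3, and IGF2BP2 at 44.2, 52.01 and 54.3 FPKM in the lines, against 40.9 FPKM in RF-P3, and DICER1, which cuts microRNA precursors, was not called at 21.6, 21.7 and 18.7 FPKM in the lines, against 10.4 FPKM in RF-P3. The fibroblasts were fetal, and IGF2BP3, HMGA2 and IGF2BP1, named after their values were seen, were already at 44.3, 40.2 and 20.6 FPKM in RF-P3, whereas the NESC lines had 88.2, 107 and 125 FPKM of IGF2BP3, 139, 168 and 119 FPKM of HMGA2 and 99.3, 124 and 116 FPKM of IGF2BP1. These 3 were called higher, IGF2BP3 not without C8-P7 and HMGA2 not without CHIR-P23.

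Genes of neuronal differentiation rose in part. Of 19 tested 10 rose and 1 fell (median 1.24), and 7 rose without C8-P7. The gene that fell was not called without C8-P7 or without A9-P7. The genes with the highest levels encode the neuronal cytoskeleton. NEFM and NEFL, neurofilament subunits, were at 71.3, 76.5 and 90.8 FPKM in the NESC lines, against 3.77 FPKM in RF-P3, and at 91.96, 112 and 99.7 FPKM in the lines, against 5.62 FPKM in RF-P3. TUBB3, neuronal tubulin, was at 174, 261 and 214 FPKM in the lines, against 40.6 FPKM in RF-P3, and MAP2, a protein of dendrites, at 27.4, 39.5 and 26.9 FPKM in the lines, against 1.804 FPKM in RF-P3. DLL1, the NOTCH ligand that differentiating cells present to their neighbours, was at 18.2, 17.6 and 11.8 FPKM in the lines, against 0.861 FPKM in RF-P3. The proneural factors NEUROG1, NHLH1 and NHLH2, named after their values were seen, were called higher but stayed at or below 1.74 FPKM in every line. None of these 3 calls held in every fit without a line: NEUROG1 was lost without C8-P7 or A9-P7, NHLH1 without C8-P7, and NHLH2 without CHIR-P23 or A9-P7. GAP43, a protein of growing axons, did not pass the test at 25.4, 22.8 and 12.5 FPKM in the NESC lines, against 43.3 FPKM in RF-P3, and neither did the neuron marker STMN2 at 9.87, 7.001 and 5.98 FPKM in the lines, against 15.2 FPKM in RF-P3, with RF-P3 the highest in both. Without CHIR-P23 STMN2 was called lower. Among 48 axon guidance genes 15 rose and 6 fell. The counts were 5 and 3 without C8-P7 and 11 and 12 without CHIR-P23. RGMA, a repulsive cue that binds neogenin, was at 62.1, 85.3 and 66.96 FPKM in the NESC lines, against 1.88 FPKM in RF-P3, and DRAXIN, a guidance factor of commissural axons, at 19.3, 23.5 and 43.6 FPKM in the NESC lines and at 0 in RF-P3. SEMA7A, a semaphorin anchored to the membrane, fell and was at 0.756, 0.459 and 1.302 FPKM in the lines, against 85.9 FPKM in RF-P3. NEO1, neogenin, was not called at 22.1, 31.4 and 26.1 FPKM in the lines, against 15.3 FPKM in RF-P3. Of 19 synapse and ion channel genes 7 rose and 4 fell, but without C8-P7 1 and 2, and 4 rose without CHIR-P23 or without A9-P7. CPLX2, complexin, a protein of vesicle release, was at 6.16, 19.1 and 20.2 FPKM in the NESC lines and listed at 0 in RF-P3 (not called without C8-P7 or without A9-P7), and SYN1, a synaptic vesicle protein, fell and was at 0.331, 0.379 and 0.604 FPKM in the lines, against 7.27 FPKM in RF-P3.

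NOTCH signalling passes between neighbouring cells when a ligand on one cell releases the intracellular part of a NOTCH receptor on the next, and its HES targets repress proneural genes. Of 25 genes tested 12 rose and 5 fell (median 0.88), and without C8-P7 9 rose and 2 fell (3 fell without CHIR-P23). The ligand JAG1 was at 35.3, 38.3 and 25.03 FPKM in the NESC lines, against 0.884 FPKM in RF-P3 (log2 fold change 4.15, SE 0.29, adjusted p = 0.0044 with limma). Of the receptors, named after their values were seen, NOTCH1 was higher at 10.6, 10.7 and 8.11 FPKM in the lines, against 1.25 FPKM in RF-P3, NOTCH3 was higher at 11.2, 14.2 and 13.6 FPKM in the lines, against 0.733 FPKM in RF-P3, and NOTCH2 was lower at 16.3, 16.8 and 13.8 FPKM in the lines, against 43.4 FPKM in RF-P3. The target HES5 was at 14.5, 23.1 and 13.4 FPKM and the feedback inhibitor NRARP at 8.57, 8.197 and 9.15 FPKM in the NESC lines, and both were listed at 0 in RF-P3. HES6, which opposes HES1, was at 20.03, 18.97 and 19.7 FPKM in the lines, against 1.11 FPKM in RF-P3, and DTX4, a ubiquitin ligase of the pathway, at 24.2, 33.97 and 22.3 FPKM in the lines, against 0.332 FPKM in RF-P3. HES1, also a target and named after its values were seen, did not pass the test at 12.1, 11.99 and 8.67 FPKM in the NESC lines, against 14.8 FPKM in RF-P3, and the protease ADAM10 was not called at 32.7, 29.01 and 30.98 FPKM in the lines, against 56.01 FPKM in RF-P3.

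In hedgehog signalling the receptor PTCH1 holds back SMO until a ligand binds, and PTCH1 is itself a target of the pathway. Of 10 genes tested 3 rose and 1 fell, and 6 rose without A9-P7. PTCH1 was at 20.1, 32.2 and 31.5 FPKM in the NESC lines, against 2.3004 FPKM in RF-P3, SMO at 32.8, 43.7 and 38.2 FPKM in the lines, against 5.69 FPKM in RF-P3, and BOC, a co-receptor, at 42.2, 61.3 and 37.97 FPKM in the lines, against 2.22 FPKM in RF-P3. KIF7, a kinesin of the primary cilium, fell and was at 6.702, 7.96 and 6.9004 FPKM in the lines, against 24.7 FPKM in RF-P3. GLI3, which acts mostly as the repressor of the pathway, was not called at 24.7, 27.2 and 13.1 FPKM in the lines, against 10.05 FPKM in RF-P3, but was higher without A9-P7.

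WNT proteins bind Frizzled receptors (FZD) and keep beta-catenin from destruction by GSK3, the kinase that CHIR99021 inhibits. Of 47 genes tested 8 rose and 15 fell (median 0.03), and without C8-P7 5 rose and 11 fell. Secreted antagonists were the largest falls. DKK1 was at 0.0488, 0.145 and 0.0262 FPKM in the NESC lines, against 312 FPKM in RF-P3, SFRP2 at 41.2, 55.2 and 40.02 FPKM in the lines, against 944 FPKM in RF-P3, and DKK3 at 3.47, 8.46 and 5.07 FPKM in the lines, against 105 FPKM in RF-P3. Among receptors FZD10 was at 27.8, 23.96 and 27.1 FPKM in the NESC lines, against 0.111 FPKM in RF-P3, and FZD3 at 28.4, 34.04 and 32.8 FPKM in the lines, against 1.68 FPKM in RF-P3, whereas FZD7 did not pass the test at 39.1, 46.7 and 51.6 FPKM in the lines, against 76.7 FPKM in RF-P3. The common targets of the pathway AXIN2 and LEF1, named after their values were seen, both rose, AXIN2 to 15.9, 15.2 and 15.6 FPKM in the lines, against 2.43 FPKM in RF-P3, and LEF1 to 9.74, 7.34 and 17.6 FPKM in the lines, against 0.813 FPKM in RF-P3 (not called without CHIR-P23 or without C8-P7). CTNNB1, beta-catenin itself, did not pass the test at 171, 168 and 169.9 FPKM in the NESC lines, against 147 FPKM in RF-P3. Since the sources differ on CHIR99021 in the medium of the lines, and RF-P3 had another medium, an effect of the inhibitor on these genes cannot be told apart.

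Genes of TGF-beta and BMP signalling were mostly lower. Of 45 tested 25 fell and 2 rose (median -1.87). The number that rose was 1 without C8-P7 and 5 with quantile normalization. GREM1, a secreted BMP antagonist, was at 0.286, 0.102 and 0.00701 FPKM in the NESC lines, against 528 FPKM in RF-P3. ID1, an immediate BMP target, was at 6.15, 5.73 and 10.6 FPKM in the lines, against 212 FPKM in RF-P3. The receptor TGFBR1, which SB431542 inhibits, was not called at 68.7, 79.6 and 71.02 FPKM in the NESC lines, against 39.8 FPKM in RF-P3, and the signal transducer SMAD2 did not pass the test at 24.4, 26.6 and 25.5 FPKM in the lines, against 33.3 FPKM in RF-P3. ID4, another inhibitor of basic helix-loop-helix factors, was at 26.8, 46.1 and 25.2 FPKM in the lines, against 32.2 FPKM in RF-P3, with the groups overlapping.

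Receptors and ligands of growth factor signalling were called in both directions. Of 42 receptor tyrosine kinases and ligands 21 fell and 8 rose. VEGFC, a lymphatic growth factor, was at 1.53, 0.1705 and 0.679 FPKM in the NESC lines, against 117 FPKM in RF-P3, AXL at 4.69, 3.17 and 2.999 FPKM in the lines, against 127 FPKM in RF-P3, and DDR2, a collagen receptor, at 0.433, 0.191 and 0.255 FPKM in the lines, against 32.8 FPKM in RF-P3. MDK, midkine, a heparin-binding factor of embryonic brain that was named after its values were seen, rose to 532, 651 and 526 FPKM in the lines, against 44.96 FPKM in RF-P3. Among FGF genes and their feedback 11 of 31 fell and 5 rose. FGF5 was at 0.0207, 0 and 0 FPKM in the lines, against 15.9 FPKM in RF-P3, and EGR1, an immediate early gene, at 0.713, 0.743 and 0.835 FPKM in the lines, against 16.8 FPKM in RF-P3. MYCN, the MYC gene of neural progenitors, was higher at 21.8, 33.5 and 39.1 FPKM in the NESC lines, against 0.868 FPKM in RF-P3, while MYC did not pass the test at 140.0, 66.7 and 81.9 FPKM in the lines, against 60.8 FPKM in RF-P3. FGFR1 was not called at 25.02, 20.4 and 20.4 FPKM in the lines, against 34.1 FPKM in RF-P3. Of 7 IGF-binding proteins 5 fell, led by IGFBP3 at 0.388, 0.416 and 0.0125 FPKM in the NESC lines, against 843 FPKM in RF-P3, and IGFBPL1 rose, at 52.5, 22.2 and 31.4 FPKM in the lines, against 0.4005 FPKM in RF-P3. IGFBP2 was not called, with an adjusted p of 0.017 in limma but a change under 2-fold, at 224, 232 and 234 FPKM in the lines, against 165 FPKM in RF-P3.

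The LIF and interleukin-6 family signals through gp130 and STAT3. Of 18 genes tested 11 fell and 2 rose (1 without CHIR-P23 and 1 without C8-P7). CNTFR, the receptor of ciliary neurotrophic factor, was higher at 39.2, 53.4 and 60.9 FPKM in the NESC lines, against 0.304 FPKM in RF-P3. The cytokines IL6 and IL11 fell, IL6 with 0, 0 and 0.0151 FPKM in the NESC lines, against 25.5 FPKM in RF-P3, and IL11 with 0.0409, 0 and 0.0365 FPKM in the lines, against 12.97 FPKM in RF-P3. STAT3 did not pass the test at 27.4, 21.9 and 26.7 FPKM in the lines, against 28.4 FPKM in RF-P3. Among targets and members of the Hippo pathway 10 of 23 fell (6 without C8-P7). ANKRD1, a target of YAP, was at 0.0809, 0.201 and 0 FPKM in the NESC lines, against 509 FPKM in RF-P3, a log2 fold change of -8.87, and CRIM1 at 8.92, 7.27 and 7.06 FPKM in the lines, against 74.5 FPKM in RF-P3. YAP1 itself did not pass the test at 52.1, 58.8 and 53.7 FPKM in the lines, against 62.5 FPKM in RF-P3.

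HOX genes mark position along the body axis, low numbers in front and high numbers behind. Of 23 HOX genes tested 9 fell and 1 rose (median -1.10). The counts were 14 and 4 without CHIR-P23, and none rose without C8-P7 or without A9-P7. In the HOXB cluster the levels parted between HOXB4 and HOXB5. HOXB2 was at 28.2, 45.7 and 38.04 FPKM in the NESC lines, against 21.5 FPKM in RF-P3, and HOXB3 at 14.2, 25.8 and 31.1 FPKM in the lines, against 11.02 FPKM in RF-P3, neither of them called (HOXB3 was higher without CHIR-P23). HOXB5 was at 0.0431, 0 and 0 FPKM in the NESC lines, against 7.16 FPKM in RF-P3, and HOXB7 at 0.111, 0 and 0 FPKM, against 12.1 FPKM. In the HOXC cluster HOXC6 was at 0.0809, 0.01998 and 0 FPKM in the NESC lines, against 16.4 FPKM in RF-P3, while HOXC8 and HOXC10 were listed at 0 in each line and at 53.96 and 5.73 FPKM in RF-P3. Of HOXA and HOXD genes, named after their values were seen, HOXA2 was the gene that rose, at 5.18, 11.1 and 9.63 FPKM in the NESC lines, against 0.696 FPKM in RF-P3. HOXA7 was at 12.01, 1.23 and 0.625 FPKM in the NESC lines, against 7.28 FPKM in RF-P3, and HOXA9 at 24.2, 0.708 and 0.157 FPKM in the lines, against 8.02 FPKM in RF-P3, so that CHIR-P23 lay above RF-P3 in both and the clones lay below it. Without CHIR-P23 both were called lower. Among retinoic acid genes 6 of 15 fell and 3 rose (1 without C8-P7). ALDH1A3 and ALDH1A2, which make retinoic acid, were at most 0.00357 FPKM in any line, against 80.4 and 57.2 FPKM in RF-P3. CRABP1, a cytoplasmic binding protein, was higher at 317, 352 and 196 FPKM in the NESC lines, against 13.9 FPKM in RF-P3, while its relative CRABP2 did not pass the test at 347, 473 and 746 FPKM in the lines, against 444 FPKM in RF-P3.

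**Figure D3:**
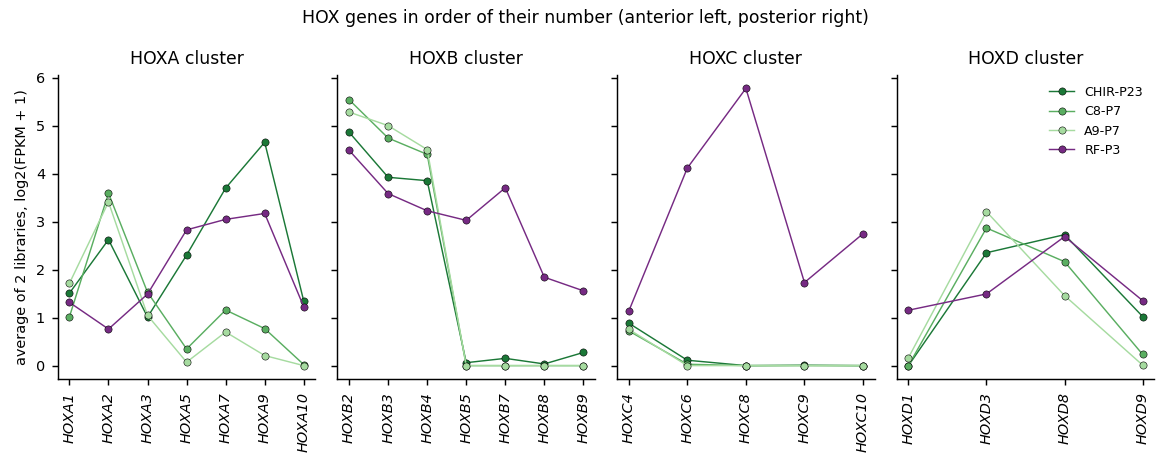
Averages of 2 libraries as log2(FPKM + 1) for the HOX genes tested, from low to high number within each cluster, in CHIR-P23, C8-P7, A9-P7 and RF-P3. In HOXB the NESC lines lie above RF-P3 up to HOXB4 and near 0 from HOXB5 on, and in HOXC RF-P3 alone is high. In HOXA both clones are low from HOXA5 on, while CHIR-P23 lies above RF-P3 at HOXA7 and HOXA9.

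Among other positional factors, GBX2, a factor of the anterior hindbrain, was higher at 19.4, 18.8 and 26.2 FPKM in the NESC lines, against 0.0969 FPKM in RF-P3. EMX2 was at 0.0331, 0 and 0 FPKM and EN1 at 0.0394, 0 and 0.00503 FPKM in the NESC lines, against 33.1 and 10.7 FPKM in RF-P3, and EN1 is known from dermal fibroblasts as well as from the midbrain. IRX3 did not pass the test at 18.9, 30.6 and 39.5 FPKM in the lines, against 29.7 FPKM in RF-P3. ZIC2, a factor of the dorsal neural tube, was higher at 18.3, 13.8 and 20.2 FPKM in the NESC lines, against 0.848 FPKM in RF-P3. Its neighbour in function ZIC1 was not called at 29.3, 0.101 and 5.17 FPKM in the NESC lines, against 18.7 FPKM in RF-P3: C8-P7 was near 0, and CHIR-P23 was above RF-P3. MSX1, of dorsal midline and mesenchyme, fell and was at 2.74, 0.565 and 0.938 FPKM in the lines, against 55.7 FPKM in RF-P3.

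Genes of DNA replication and of mitosis were mostly not called, as were most of all genes tested. Of 49 replication genes 5 rose (10.2%, beside 10.5% over all genes), with a median of 0.51. The number was 2 without C8-P7, but 14 with quantile normalization and 15 with equal FPKM totals. At an unadjusted p under 0.05 in limma, with no minimum change, 35 of the 49 were higher and 1 was lower. GMNN, geminin, which prevents origins from firing again, was at 83.8, 72.7 and 82.4 FPKM in the NESC lines, against 34.9 FPKM in RF-P3, and RPA2, a subunit of the single-strand binding complex, at 72.9, 74.7 and 72.1 FPKM in the lines, against 32.6 FPKM in RF-P3. PCNA, the sliding clamp, was not called at 574, 591 and 514 FPKM in the lines, against 391 FPKM in RF-P3, nor was the helicase subunit MCM7 at 195, 218 and 187 FPKM in the lines, against 109.8 FPKM in RF-P3. Of 39 mitosis genes 3 rose and 2 fell (median 0.16), and 1 and 1 without C8-P7 (1 fell without A9-P7). The shares with all lines were 7.69% and 5.13%, beside 10.5% and 18.1% over all genes. By the same unadjusted limma p 14 were higher and 7 lower. ANLN, anillin, which also organises the contractile ring, fell and was at 37.98, 35.6 and 36.4 FPKM in the NESC lines, against 137 FPKM in RF-P3, whereas MAD2L1 of the spindle checkpoint rose and was at 262, 308 and 258 FPKM in the lines, against 119 FPKM in RF-P3. CCNB1, cyclin B1, did not pass the test at 232, 222 and 213 FPKM in the lines, against 197 FPKM in RF-P3, nor did CDC20 at 189, 191 and 185 FPKM in the lines, against 184 FPKM in RF-P3. Among regulators of G1 7 of 35 were higher (20%) and 6 lower (17.1%), beside 10.5% and 18.1% over all genes. The counts were 3 and 2 without C8-P7 and 4 and 8 without CHIR-P23. GADD45B, induced by stress and TGF-beta, was at 0.513, 0 and 0 FPKM in the lines, against 55.3 FPKM in RF-P3, and CDKN2B, the CDK inhibitor p15, at 0.124, 0.0478 and 0.0307 FPKM in the lines, against 5.66 FPKM in RF-P3. E2F2 and E2F5 were higher, E2F2 at 14.003, 16.3 and 11.7 FPKM in the lines, against 0.8603 FPKM in RF-P3, and E2F5 at 49.1, 52.4 and 40.8 FPKM in the lines, against 5.902 FPKM in RF-P3. CDK4 was not called, with an adjusted p of 0.025 in limma but a change under 2-fold, at 286, 302 and 291 FPKM in the lines, against 220.2 FPKM in RF-P3. In DNA repair 10 of 50 genes rose (20%) and 1 fell (2%), beside 10.5% and 18.1% over all genes. The gene that fell was not called without CHIR-P23 or without A9-P7. Higher genes numbered 6 without C8-P7 and 16 with equal FPKM totals. UNG, which removes uracil, was at 67.5, 75.8 and 67.4 FPKM in the NESC lines, against 23.8 FPKM in RF-P3.

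Chromatin regulators were called in both directions. DNMT3B, a methyltransferase that sets DNA methylation in the embryo, rose and was at 20.7, 24.2 and 28.9 FPKM in the NESC lines, against 2.35 FPKM in RF-P3, and MBD2, which binds methylated DNA, fell and was at 23.8, 17.4 and 18.9 FPKM in the lines, against 88.2 FPKM in RF-P3. DNMT1, which maintains methylation, did not pass the test at 61.5, 58.4 and 57.1 FPKM in the lines, against 59.2 FPKM in RF-P3. Of 34 polycomb genes 8 rose (23.5%) and 3 fell (8.82%), beside 10.5% and 18.1% over all genes. Without C8-P7 3 rose, and the 3 that had fallen were no longer called. EZH2, the methyltransferase of H3K27, was at 97.5, 111 and 97.1 FPKM in the NESC lines, against 37.3 FPKM in RF-P3, and CBX2, a subunit that reads this mark, at 44.5, 58.2 and 57.6 FPKM in the lines, against 12.4 FPKM in RF-P3. In the BAF remodelling complex 5 of 26 genes rose and 3 fell (without C8-P7 3 and 2). These were 19.2% and 11.5%, beside 10.5% and 18.1% over all genes. BCL7A and SMARCD1 rose, BCL7A to 11.02, 12.2 and 10.5 FPKM in the lines, against 2.19 FPKM in RF-P3, and SMARCD1 to 63.8, 70.9 and 69.8 FPKM in the lines, against 19.6 FPKM in RF-P3, and the alternative subunit SMARCD3 fell and was at 4.94, 5.03 and 4.06 FPKM in the lines, against 17.03 FPKM in RF-P3. SMARCA4, the ATPase, was not called at 63.8, 74.5 and 64.4 FPKM in the lines, against 45.2 FPKM in RF-P3.

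Cholesterol synthesis stood out among metabolic lists. Of 26 genes 10 rose and 2 fell (median 0.67). Without C8-P7 7 rose, and the genes that had fallen were no longer called (1 fell without A9-P7). HMGCS1, which opens the mevalonate pathway, was at 733, 644 and 517 FPKM in the NESC lines, against 91.4 FPKM in RF-P3 (log2 fold change 2.76, SE 0.23, adjusted p = 0.0062 with limma). MVD was at 221, 225 and 164 FPKM in the lines, against 40.1 FPKM in RF-P3, and TM7SF2, a sterol reductase, at 22.3, 33.3 and 27.6 FPKM in the lines, against 1.41 FPKM in RF-P3. FDPS, IDI1 and MSMO1 of the same pathway were not called, although in each all 3 lines lay above RF-P3, FDPS at 371, 406 and 376 FPKM in the lines, against 247 FPKM in RF-P3.

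Both main glucose transporters were called, in opposite directions. SLC2A1, the glucose transporter GLUT1, rose and was at 208, 248 and 199.8 FPKM in the NESC lines, against 31.6 FPKM in RF-P3, while SLC2A3, GLUT3, was lower at 23.8, 8.32 and 12.1 FPKM in the lines, against 149 FPKM in RF-P3, but not called without C8-P7 or without A9-P7. SLC16A3, which exports lactate, was at 0.4597, 0.415 and 1.05 FPKM in the NESC lines, against 103 FPKM in RF-P3. Over the 26 genes of glycolysis and glucose uptake 2 rose (7.69%) and 7 fell (26.9%), beside 10.5% and 18.1% over all genes. Without C8-P7 1 rose and 3 fell, and 4 fell without A9-P7. HK1, hexokinase, was at 23.8, 22.8 and 25.7 FPKM in the lines, against 113 FPKM in RF-P3. GAPDH was not called, with an adjusted p of 0.046 in limma but a change under 2-fold, at 2119.9, 1914 and 1994 FPKM in the lines, against 2828 FPKM in RF-P3. Serine and one-carbon metabolism had 7 of 25 genes higher and 2 lower (1 lower without any 1 line). The glycine cleavage genes GLDC and GCSH rose, GLDC to 84.7, 95.03 and 132 FPKM in the NESC lines, against 5.82 FPKM in RF-P3, and GCSH to 128, 132 and 145 FPKM in the lines, against 38.02 FPKM in RF-P3. PHGDH, which starts serine synthesis, did not pass the test at 200.2, 229 and 226 FPKM in the lines, against 173 FPKM in RF-P3. For oxidative phosphorylation 2 of 47 genes, SDHA and SDHB of complex II, were called lower, and neither without C8-P7 or without A9-P7 (4 were called without CHIR-P23). The median was -0.29 and its sign turned under quantile normalization (0.05).

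Ribosomal protein genes were not called. Of 59 cytosolic ribosomal protein genes limma called 0, with log2 fold changes from -0.21 to 0.57 and a median of 0.30. At an unadjusted p under 0.05 there were 23 of them, all higher. RPS18, the gene of the highest level among them, was at 4302, 4629 and 4791 FPKM in the NESC lines, against 3615 FPKM in RF-P3. Several of these genes have near-identical pseudogenes, which makes single levels uncertain. Of 52 mitochondrial ribosomal protein genes limma also called 0, with a median of -0.22, which was 0.07 under quantile normalization, and 5 higher and 11 lower at an unadjusted p under 0.05.

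In contrast, the machinery for secretion was lower. Of 46 genes of the secretory pathway 29 fell (median -1.07), 13 without C8-P7 and 16 with quantile normalization. COPZ2, a subunit of the vesicle coat COPI, was at 0.386, 0.481 and 1.32 FPKM in the NESC lines, against 27.5 FPKM in RF-P3, and TMED9, a cargo receptor, at 54.3, 50.6 and 46.8 FPKM in the lines, against 259 FPKM in RF-P3. SEC11A, of the signal peptidase, had an adjusted p of 0.023 with limma but changed by less than 2-fold, at 139, 126 and 116 FPKM in the lines, against 217 FPKM in RF-P3. Among chaperones of the endoplasmic reticulum and its stress response 19 of 27 fell (median -1.46), but 4 without C8-P7. DNAJB11 was at 38.6, 35.02 and 28.1 FPKM in the NESC lines, against 146 FPKM in RF-P3, and HERPUD1, a stress-induced factor of degradation, at 8.92, 6.63 and 7.86 FPKM in the lines, against 36.7 FPKM in RF-P3. CALR, calreticulin, was at 581, 483 and 358 FPKM in the lines, against 1923 FPKM in RF-P3, and not called without C8-P7. ATF4, the stress factor, did not pass the test at 290.5, 273 and 284 FPKM in the lines, against 242 FPKM in RF-P3. Of 46 genes of lysosome and autophagy 29 fell (median -1.25). CTSK, a cathepsin that degrades collagen, was at 3.17, 3.33 and 3.52 FPKM in the NESC lines, against 107 FPKM in RF-P3, CTSL at 34.2, 32.7 and 42.4 FPKM in the lines, against 219.7 FPKM in RF-P3, and ASAH1, acid ceramidase, at 15.8, 11.6 and 14.7 FPKM in the lines, against 117 FPKM in RF-P3. GABARAP of the autophagosome was not called at 162, 187 and 224 FPKM in the lines, against 287 FPKM in RF-P3.

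Immune and inflammatory genes were low in the NESC lines. Of 20 secreted inflammatory factors 16 fell, and the complement inhibitor SERPING1, named after its values were seen, rose to 28.4, 41.3 and 43.3 FPKM in the lines, against 9.46 FPKM in RF-P3, and was not called without C8-P7 or without A9-P7. IL1B was listed at 0 in each line and at 13.3 FPKM in RF-P3. CXCL12, a chemokine of stromal cells, was at 0.0141, 0 and 0.0749 FPKM in the NESC lines, against 15.8 FPKM in RF-P3, and CSF1, the growth factor of macrophages, at 2.71, 2.96 and 2.1 FPKM in the lines, against 48.1 FPKM in RF-P3. Among interferon response genes 20 of 32 fell (median -1.49). TMEM173, the DNA sensor adaptor STING, was at 0.481, 0 and 0 FPKM in the NESC lines, against 41.8 FPKM in RF-P3, PSMB8 of the immunoproteasome at 0.0342, 0 and 0.0102 FPKM in the lines, against 13.2 FPKM in RF-P3, and BST2, which tethers budding viruses, at 0.211, 0 and 0.2396 FPKM in the lines, against 7.596 FPKM in RF-P3. B2M, the light chain of class I antigen presentation, was at 248, 199 and 197 FPKM in the lines, against 1164 FPKM in RF-P3, which leaves a level near 200 FPKM in all lines. IRF3 was lower by less than 2-fold (limma, adjusted p = 0.036) and so not called, at 47.9, 48.8 and 55.5 FPKM in the lines, against 74.96 FPKM in RF-P3. Of 30 apoptosis genes 7 fell (23.3%) and 1 rose (3.33%), beside 18.1% and 10.5% over all genes. CASP8, the initiator caspase of death receptors, was at 0.646, 0.132 and 0.167 FPKM in the NESC lines, against 19.5 FPKM in RF-P3, TNFRSF1A, the TNF receptor, at 12.6, 10.7 and 9.54 FPKM in the lines, against 64.3 FPKM in RF-P3, and CFLAR, the inhibitor of CASP8, at 5.45, 5.39 and 5.202 FPKM in the lines, against 19.6 FPKM in RF-P3. BAX, of the mitochondrial route, did not pass the test at 104, 105 and 128 FPKM in the lines, against 136 FPKM in RF-P3. The single gene that rose, BIK, named after its values were seen, was not called without CHIR-P23 or without C8-P7.

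**Figure D4:**
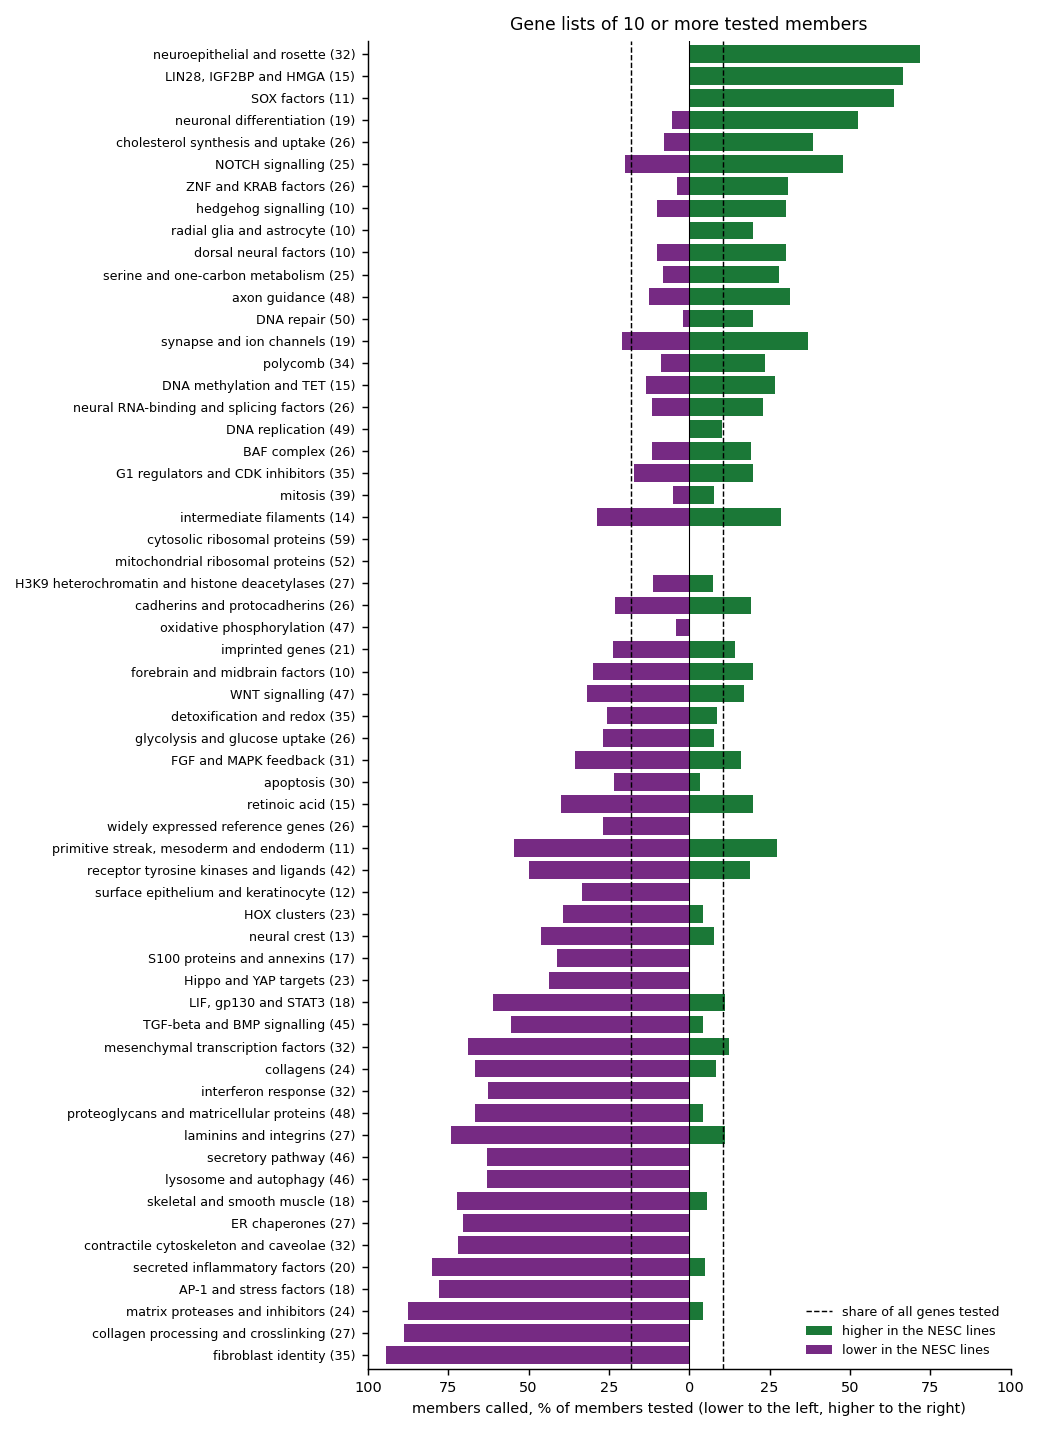
Share of the tested members of each gene list that limma called lower (to the left) or higher (to the right) in the NESC lines against RF-P3, for lists of at least 10 tested members, with the number tested in parentheses. The dashed lines mark the shares over all genes, 18.1% lower and 10.5% higher, and the list of fibroblast identity reaches 94.3% lower while neuroepithelial and rosette genes reach 71.9% higher. Without C8-P7 22 of the 35 fibroblast identity genes were called lower, and 22 of the 32 neuroepithelial and rosette genes higher.

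The NESC lines were not alike in all genes. In 212 of the 967 genes with a range of 2-fold or more CHIR-P23 was 2-fold above both clones while the clones lay within 2-fold of each other, and in 108 of the 212 all 3 lines stood 2-fold below RF-P3. For the other patterns of 1 line apart the counts were 44 (CHIR-P23 lowest), 47 and 51 (C8-P7 highest and lowest) and 63 and 58 (A9-P7 highest and lowest). S100A6, which binds calcium, was at 65.2, 0.466 and 0.161 FPKM in the NESC lines, against 1973 FPKM in RF-P3. S100A11 was at 43.96, 0.407 and 0.142 FPKM in the lines, against 906 FPKM in RF-P3, S100A10 at 169, 2.11 and 4.79 FPKM in the lines, against 867 FPKM in RF-P3, and ANXA1, an annexin, at 42.2, 1.84 and 0.108 FPKM in the lines, against 748 FPKM in RF-P3. Both clones were under 5 FPKM in these 4 genes, and CHIR-P23 lay between them and RF-P3. ANXA2 was at 303, 13.3 and 21.3 FPKM in the NESC lines, against 3931 FPKM in RF-P3. For S100 proteins and annexins as a list 7 of 17 fell, and 13 without CHIR-P23, among them the 5 genes just named. MT2A, a metallothionein, was at 70.3, 9.44 and 1.75 FPKM in the lines, against 768 FPKM in RF-P3, and IFI16, a sensor of DNA, at 65.7, 6.42 and 1.82 FPKM in the lines, against 147 FPKM in RF-P3. CD44, the hyaluronan receptor, was at 14.2, 0.179 and 0.0185 FPKM in the NESC lines, against 133 FPKM in RF-P3, with CHIR-P23 above and both clones under 1 FPKM, and was called lower without CHIR-P23. Fibroblast markers as a group summed to 15.3 FPKM in CHIR-P23, where muscle markers summed to 13.1 FPKM, mostly DES, and the part of a few remaining cells of the starting culture in these values was not tested. SPP1, osteopontin, went beyond RF-P3 in the population, with 119, 3.01 and 2.19 FPKM in the NESC lines, against 4.38 FPKM in RF-P3.

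Other differences set 1 clone apart. NDN, the imprinted gene necdin, was at 24.4, 62.6 and 0.9597 FPKM in the NESC lines, against 20.8 FPKM in RF-P3, and so was low in A9-P7 alone. MKRN3 and MAGEL2, imprinted genes of the same region in human, named after their values were seen, were at 2.75, 6.08 and 0.124 and 4.31, 7.86 and 0.161 FPKM in the NESC lines, against 0.0683 and 0.0532 FPKM in RF-P3, again with A9-P7 the lowest line. SNURF, also imprinted there, was even among the lines at 60.2, 60.3 and 60.02 FPKM in the lines, against 94.9 FPKM in RF-P3, which is under 2-fold (limma, adjusted p = 0.0086), and was not called. Over the 21 imprinted genes 5 fell and 3 rose (1 without C8-P7). These were 23.8% and 14.3%, beside 18.1% and 10.5% over all genes. IGF2, the fetal growth factor expressed from the paternal copy, was at 0.416, 0 and 0.215 FPKM in the NESC lines, against 28.2 FPKM in RF-P3, and PEG3 rose and was at 15.6, 19.2 and 21.3 FPKM in the lines, against 2.44 FPKM in RF-P3. PEG10 did not pass the test at 333, 227 and 108 FPKM in the lines, against 127 FPKM in RF-P3, nor MEST at 298, 288 and 164 FPKM in the lines, against 141 FPKM in RF-P3, both lowest of the lines in A9-P7 (MEST was higher without A9-P7). With 1 sample for each line, differences between lines are descriptions with no test.

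**Figure D5:**
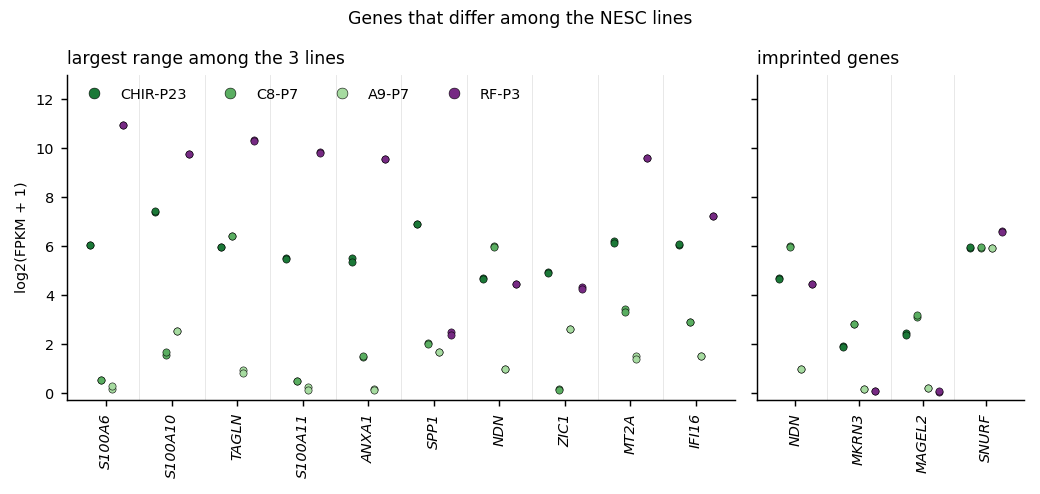
Levels as log2(FPKM + 1) of the 10 genes named for the largest range among the NESC lines (left) and of imprinted genes (right), with 1 point for each library and the groups from left to right CHIR-P23, C8-P7, A9-P7 and RF-P3. CHIR-P23 lies above both clones in S100A6, S100A10, S100A11, ANXA1, SPP1, MT2A and IFI16, A9-P7 is lowest in TAGLN and NDN, and C8-P7 in ZIC1.

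The introduced factors differed from each other in the established lines. SOX2 was at a like level in all 3 lines, as given above. POU5F1, which encodes OCT4, was at 74.7, 14.3 and 298 FPKM in the NESC lines, against 0.174 FPKM in RF-P3. It was thus above RF-P3 in every line, but the lines spread over more than 20-fold and the gene was not called (adjusted p = 0.08 with limma). KLF4 was at 6.83, 0.194 and 1.44 FPKM in the NESC lines, against 4.97 FPKM in RF-P3, with RF-P3 between the lines, and was not called. The files cannot separate the retroviral from the endogenous transcripts. Of other pluripotency genes, ZFP42 (REX1) was listed at 0 in each NESC line and at 21.8 FPKM in RF-P3, and SALL4, which embryonic stem cells and some fetal progenitors use, was at 40.4, 45.8 and 56.2 FPKM in the NESC lines and at 0 in RF-P3. NANOG, TDGF1, GDF3 and DPPA4 were under 1 FPKM in every line.

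Some genes of common use as references were not level. ACTB, beta-actin, was at 1279, 1474 and 984 FPKM in the NESC lines, against 4959 FPKM in RF-P3, and was called lower (not without CHIR-P23). Over 26 such genes 7 were called lower (26.9%, beside 18.1% over all genes), and the median was -0.50. EEF1A1, of translation, did not pass the test at 7321, 6943 and 7449 FPKM in the NESC lines, against 5753 FPKM in RF-P3, nor did PPIA at 2539.6, 2359 and 2158 FPKM in the lines, against 3426 FPKM in RF-P3. At the top of RF-P3 also stood TMSB10, thymosin beta-10, which fell and was at 825, 683 and 704 FPKM in the lines, against 6660.3 FPKM in RF-P3, and FTH1, ferritin heavy chain, which fell and was at 881, 835 and 596 FPKM in the lines, against 4969 FPKM in RF-P3.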

How the data were processed

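RNA of 14 libraries, 2 for each of 7 stages, was sequenced after depletion of ribosomal RNA. Per the labels and the study's methods, the authors aligned reads to rhesus build Mmul_8.0.1 with HISAT2 2.1.0, and Cufflinks 2.2.1 and Cuffnorm 2.2.1 gave the deposited FPKM values per locus, which keep no read counts. In the deposited table the values of 28445 of 33737 loci (84.3%) stood against the identifier of another locus, so they were moved back. Of 1627 genes for which the study's supplement lists averages per stage, 144 (8.85%) matched within 0.3 log2 as deposited and 1481 (91.0%) after the move. Genes that did not match are less certain, and 49 loci were left out. Names of 705 of 15261 LOC numbers came from RefSeq.

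Genes that reached 1 FPKM in 2 or more of the 8 libraries were fitted with limma 3.58.1 in R 4.3.3 on log2(FPKM + 1) of the pair averages, with an intensity trend, over all 14046 genes. The methods call the libraries of a pair biological replicates, but they differed by less than sampling noise, so that the p-values rest on the spread over 3 lines and may be partly technical. The clones came from the CHIR-P23 population, so that this spread is not one between independent conversions. An exact permutation test of 3 samples against 1 cannot go below p = 0.25 and was not used. On simulated data with 200 changed genes, limma recovered 44.4% of genes changed by 1.5, 62.0% by 2, 78.6% by 3 and 88.2% by 4 on the log2 scale, with 3.9 false calls on average over 10 runs. Every simulated sample, RF-P3 included, was drawn independently with the spread of the NESC lines. The simulation therefore cannot test these assumptions. Far fewer genes changed in it than the 4028 called here, so its rates are not error rates of the calls. Other computation used Python 3.11.15, NumPy 2.4.6, pandas 2.3.3 and SciPy 1.17.1, and plots used Matplotlib 3.10.9.

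The genes named were the 15 called genes with the largest rise and the 15 with the largest fall at 20 FPKM or more, up to 5 called and up to 3 abundant uncalled members of each gene list, the introduced factors, the 10 genes with the largest range among lines, the 10 of highest level, and the cell type markers. Some genes that this rule names are not reported here. Others are said to be named after their values were seen. The members and lists were chosen with earlier results of these data known. Alternatives were other pseudocounts, filters, scalings, thresholds, limma without trend or with a robust prior, single libraries as samples, and leaving out each line or replicate. The steps between low values that gave relative depth were found in 4133 of 18468 low genes. No sequence is shown, since the reference tables used here hold names only.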

Additional observations from a re-analysis of the deposited data

Results flagged for a closer look

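In 10 genes 1 NESC line lay at least 2-fold above RF-P3 and another at least 2-fold below it, so that the lines moved in opposite directions. Whether the lines differ was not tested, since each line is 1 sample. The differences below are line minus RF-P3 on log2(FPKM + 1). NDN, the imprinted gene necdin, differed by 0.22 (CHIR-P23), 1.54 (C8-P7) and -3.48 (A9-P7). HOXA9, of the posterior HOX genes, differed by 1.48 (CHIR-P23), -2.40 (C8-P7) and -2.96 (A9-P7). KITLG, the ligand of KIT, differed by 1.27 (CHIR-P23), -2.26 (C8-P7) and -2.89 (A9-P7). IFITM1, an antiviral membrane protein, differed by 2.58 (CHIR-P23), -1.43 (C8-P7) and -1.18 (A9-P7). In these last 3 genes CHIR-P23 was above RF-P3 and both clones were below it. FGF13, an intracellular FGF relative, differed by 1.60 (CHIR-P23), 2.63 (C8-P7) and -1.32 (A9-P7), and SLITRK2, a neuronal membrane protein, by 1.22, -0.091 and -1.45 in the same order. LOC106994434, without a name, differed by -0.43 (CHIR-P23), -1.78 (C8-P7) and 1.51 (A9-P7). COX7C, of cytochrome c oxidase, differed by 0.40 (CHIR-P23), -1.49 (C8-P7) and 1.09 (A9-P7). TRIM5, a restriction factor of retroviruses, differed by -1.08 (CHIR-P23), -1.40 (C8-P7) and 1.10 (A9-P7), and LRRC61 by -1.01, -1.07 and 1.13 in the same order. In the last 4 genes A9-P7 alone lay at least 2-fold above RF-P3.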

How the results depend on the processing

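No gene called in the comparison of all 3 lines with RF-P3 was called in the other direction under any alternative run. The number of genes called higher, 1480, became 669 with a pseudocount of 5, 588 at an adjusted p under 0.01, 2719 without a minimum fold change, and 667 to 1433 when a line was left out, the lowest without C8-P7. The number called lower, 2548, became 1637 with a pseudocount of 5, 1564 at an adjusted p under 0.01, and 1691 (without C8-P7) to 2492 when a line was left out. With 1 library for each line they were 1480 and 2539 without replicate 1 and 1472 and 2533 without replicate 2. By the rule of 2-fold in every line, 2003 genes were higher with a pseudocount of 0.1 and 533 with one of 5, and 1494 were lower with one of 5. At 4-fold the same rule gave 389 higher and 1062 lower. Other filters, scalings and limma settings kept the counts within 1.5 times, with 1926 higher and 2136 lower under quantile normalization and 2066 and 2093 with equal FPKM totals. The medians of forebrain and midbrain factors, G1 regulators, oxidative phosphorylation and mitochondrial ribosomal proteins changed sign under these scalings. With all 8 libraries as samples 1790 genes were higher and 2854 lower without a replicate block, and 1776 and 2843 with the replicate block. The replicate numbers did not pair the libraries, since deviations of same-numbered libraries correlated between -0.031 and 0.025. Of 288 named genes that were called, 208 were called in each of the 3 fits without a line, and 70 calls were lost without C8-P7, 32 without A9-P7 and 20 without CHIR-P23. Cufflinks values give no read counts, so that no interval of counting error is given for single genes, and C8-P7 and RF-P3 were the shallowest libraries.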

Other observations

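Adhesion and cytoskeletal genes outside the matrix were called in both directions. Of 26 cadherins and protocadherins 5 rose (19.2%) and 6 fell (23.1%), beside 10.5% and 18.1% over all genes. Without C8-P7 the counts were 3 and 3. PCDH8, a protocadherin of the nervous system, was at 27.9, 53.9 and 43.1 FPKM in the NESC lines, against 0.0164 FPKM in RF-P3. CDH11, the cadherin of mesenchyme, fell and was at 12.3, 15.2 and 4.36 FPKM in the lines, against 117 FPKM in RF-P3, and CDH6, known from neural crest and hindbrain, fell and was at 1.02, 2.402 and 4.06 FPKM in the lines, against 48.3 FPKM in RF-P3. CDH11 was not called without CHIR-P23 or without C8-P7, nor CDH6 without C8-P7. Of 14 intermediate filaments 4 rose and 4 fell (1 fell without C8-P7 and 2 without A9-P7). LMNA, which gives lamins A and C of stiff nuclei, fell and was at 37.9, 15.2 and 15.4 FPKM in the lines, against 563 FPKM in RF-P3 (not called without C8-P7 or without A9-P7), and LMNB2 did not pass the test at 107, 112 and 87.9 FPKM in the lines, against 102 FPKM in RF-P3.

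Among 26 RNA-binding and splicing factors with roles in neural cells 6 rose and 3 fell (3 rose without C8-P7). With all lines these were 23.1% and 11.5%, beside 10.5% and 18.1% over all genes. Of the muscleblind genes, splicing regulators that rise as cells differentiate, MBNL1 and MBNL2 were lower and MBNL3 was not called. MBNL1 was at 8.96, 6.12 and 6.03 FPKM in the NESC lines, against 64.99 FPKM in RF-P3, and MBNL2 at 1.38, 1.15 and 1.02 FPKM in the lines, against 50.7 FPKM in RF-P3. MSI2, the relative of MSI1, was higher at 37.9, 44.2 and 38.02 FPKM in the lines, against 7.31 FPKM in RF-P3. PTBP1, which represses neuronal exons, did not pass the test at 200.1, 196 and 142 FPKM in the lines, against 168 FPKM in RF-P3. Of 26 zinc finger factors 8 rose and 1 fell (4 rose without C8-P7), with ZNF711 at 24.1, 28.96 and 22.3 FPKM in the lines, against 4.26 FPKM in RF-P3.

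Muscle, endothelial and blood genes were mostly lower. Of 18 muscle genes 13 fell, ACTC1, cardiac actin, at 0.137, 0 and 0 FPKM in the NESC lines, against 70.9 FPKM in RF-P3. Of 7 endothelial and blood genes 6 fell, among them FLT1, a VEGF receptor, at 0.0182, 0 and 0 FPKM in the lines, against 22.8 FPKM in RF-P3, and RUNX1 at 0.308, 0 and 0.0146 FPKM in the lines, against 18.5 FPKM in RF-P3. Of 11 genes of primitive streak, mesoderm and endoderm 6 fell and 3 rose. HAND2, of limb and heart mesoderm, fell and was at 0.419, 0.0521 and 0.0261 FPKM in the lines, against 12.2 FPKM in RF-P3. CXCR4, a chemokine receptor, rose (not called without C8-P7) and was at 11.2, 17.5 and 26.6 FPKM in the lines and listed at 0 in RF-P3. MEOX1, of somites, rose (not called without CHIR-P23) and was at 8.93, 17.5 and 6.04 FPKM in the lines and listed at 0 in RF-P3. FOXC1, also of mesoderm and named after its values were seen, rose and was at 4.53, 7.13 and 5.67 FPKM in the lines, against 0.239 FPKM in RF-P3. Of 13 neural crest genes 6 fell (3 without C8-P7, 8 without CHIR-P23), and EDNRB, the endothelin receptor, rose and was at 6.58, 8.62 and 10.5 FPKM in the lines, against 0.454 FPKM in RF-P3 (not called without C8-P7). Of 35 detoxification and redox genes 9 fell (25.7%) and 3 rose (8.57%), beside 18.1% and 10.5% over all genes. Without C8-P7 4 fell and 2 rose. GPX7 was at 0, 0.119 and 0 FPKM in the lines, against 29.5 FPKM in RF-P3.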
